A study of Mus musculus with 200 samples.

Results

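The genes of the Wnt pathway were followed in mouse brain after a closed head injury (CHI). The set was defined by name, with earlier results of these data known. It took every listed gene whose name starts with Wnt, Fzd, Sfrp, Dkk or Rspo and a digit, together with Axin1, Axin2, Lef1, Tcf7, Tcf7l1, Tcf7l2, Lrp5 and Lrp6. Of the 56941 genes listed, 51 carried such a name, and the 42 with at least 10 counts in at least 20 of the 200 mice were kept. The 9 that fell under that minimum were Wnt1, Wnt3a, Wnt8a, Wnt8b, Wnt11, Dkk1, Dkk4, Rspo4 and its antisense transcript Rspo4os. The 42 genes were 14 Wnt ligands, 11 with a Frizzled name, 2 LRP co-receptors, 3 R-spondins, 4 secreted Frizzled-related inhibitors, 2 Dickkopf genes, 2 Axins and 4 TCF/LEF factors. The name Fzd10os belongs to a noncoding RNA transcribed antisense to Fzd10, and it was kept because the rule takes names.

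Wnt proteins are secreted lipid-modified ligands that bind Frizzled receptors with LRP5 or LRP6, which halts the breakdown of beta-catenin by the complex built on Axin and lets beta-catenin act with TCF/LEF factors on target genes. R-spondins raise the sensitivity of a cell to Wnt by protecting Frizzled receptors from removal, whereas secreted Frizzled-related proteins bind ligands outside the cell and the classical Dickkopf proteins block the LRP co-receptors. In the adult brain the pathway is best known for maintaining the blood-brain barrier, where Wnt7a and Wnt7b signal to endothelial cells, and for its part in synapse maintenance and adult neurogenesis.

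Mice received a single impact on the intact skull at the midline under isoflurane (CHI) or the same surgery without impact (sham), and the poly(A) RNA of a snap-frozen, saline-perfused hemisphere was sequenced 9, 24 or 72 h later. There were mice of the inbred strain C57BL/6J and of 3 further strains, with the labels IL-1R1 nRestore, IL-1R1 eRestore and IL-1R1 gKO. What these 3 labels change at the interleukin-1 receptor gene, and any driver used, is not given in the sources used here, which describe the C57BL/6J mice. At 9, 24 and 72 h in turn, C57BL/6J had 15, 14 and 14 CHI mice and 6 sham mice at each time. IL-1R1 gKO had 13, 12 and 12 CHI mice and 6 sham mice at each time. IL-1R1 eRestore had 12, 9 and 12 CHI mice and 6, 5 and 6 sham mice. IL-1R1 nRestore had 6, 8 and 6 CHI mice and 4, 5 and 5 sham mice. Ages ran from 3.3 to 5.17 months at 9 h, from 4.3 to 7.4 months at 24 h and from 4.5 to 7.67 months at 72 h. Both sexes were present in every group except IL-1R1 nRestore at 72 h, which was labelled all male. Surgeries took place in the morning, so the collection times fell at different times of day, and no labelled experiment held both 9 h mice and later mice.

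The libraries held between 14857985 and 57355676 assigned counts (median 20258936), and all but 2 matched their labelled sex, the exceptions being an IL-1R1 eRestore sham mouse at 24 h and an IL-1R1 nRestore CHI mouse at 72 h. The neuron markers were present in every library, with a summed level between 4470.5 and 8934 TPM, the transcripts-per-million unit, which corrects for transcript length and library size. The median TPM of Il1r1 was 2.00 in C57BL/6J, 3.94 in IL-1R1 gKO, 3.10 in IL-1R1 eRestore and 3.83 in IL-1R1 nRestore, so the whole-gene level did not set the gKO mice apart as low. In whole tissue, fewer cells of a type and less RNA per cell cannot be told apart, and this holds for each value given here.

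On the TPM scale, averaged over all 200 mice, the set ran from Dkk3 at 217 TPM, far above all the other members, to Wnt9b at 0.177 TPM. The most abundant member of each role was Wnt7b among the ligands (16.8 TPM), Fzd3 among the receptors (25.8 TPM), Lrp6 of the co-receptors (18.4 TPM) and Rspo2 of the R-spondins (10.1 TPM). Among the others it was Sfrp1 (4.73 TPM), Dkk3, Axin2 (14.1 TPM) and Tcf7l2 (4.71 TPM). The remaining ligands with a mean above 4 TPM were Wnt9a (8.14), Wnt7a (6.19), Wnt4 (5.65), Wnt10a (4.73) and Wnt5a (4.2).

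At 9 h after surgery, C57BL/6J CHI mice had lower Wnt7a, Wnt9a and Wnt7b and higher Wnt3, Wnt10b, Wnt10a and Wnt5a transcript levels than sham mice. Further changes were found among the receptors and R-spondins and in Dkk3 and Axin1. A member was counted as changed when edgeR, in a quasi-likelihood fit that also held sex and age, gave a Benjamini-Hochberg adjusted p under 0.05 over all genes tested. By that rule 15 of the 42 members tested (35.7%) changed in C57BL/6J at 9 h, beside 14.1% of all genes tested. Of these, 7 were higher, beside 7.05% of all genes, and 8 were lower, beside 7% of all genes. Because the set was chosen with earlier results of these data known, the shares are given side by side and were not tested. The median log2 fold change of the members was -0.01, the same as over all genes, so the set as a whole did not lean to either side. Over all 4 strains at 9 h, with strain as a further covariate, 13 of 41 members (31.7%) changed, beside 26.5% of all genes. There 6 were higher, beside 12.7% of all genes, and 7 were lower, beside 13.8%. That share lay close to the background, and the members' median was -0.04 against -0.01 over all genes.

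Fewer members passed in the other strains taken alone. IL-1R1 eRestore mice at 9 h had 3 of 42 members changed (7.14%), all lower, beside 7.34% of all genes in either direction, 4.1% higher and 3.24% lower. In IL-1R1 gKO at 9 h the count was 0 of 41 with edgeR, beside 0.199% of all genes, with 6 members at an unadjusted p under 0.05 and 1 passing with DESeq2. In IL-1R1 nRestore at 9 h it was 0 of 41, beside 0.608% of all genes, with 5 at an unadjusted p under 0.05 and 1 passing with DESeq2. The shares of all genes are for the adjusted p with edgeR. They are no background for the unadjusted or DESeq2 counts, for which no share of all genes is given.

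**Figure D1:**
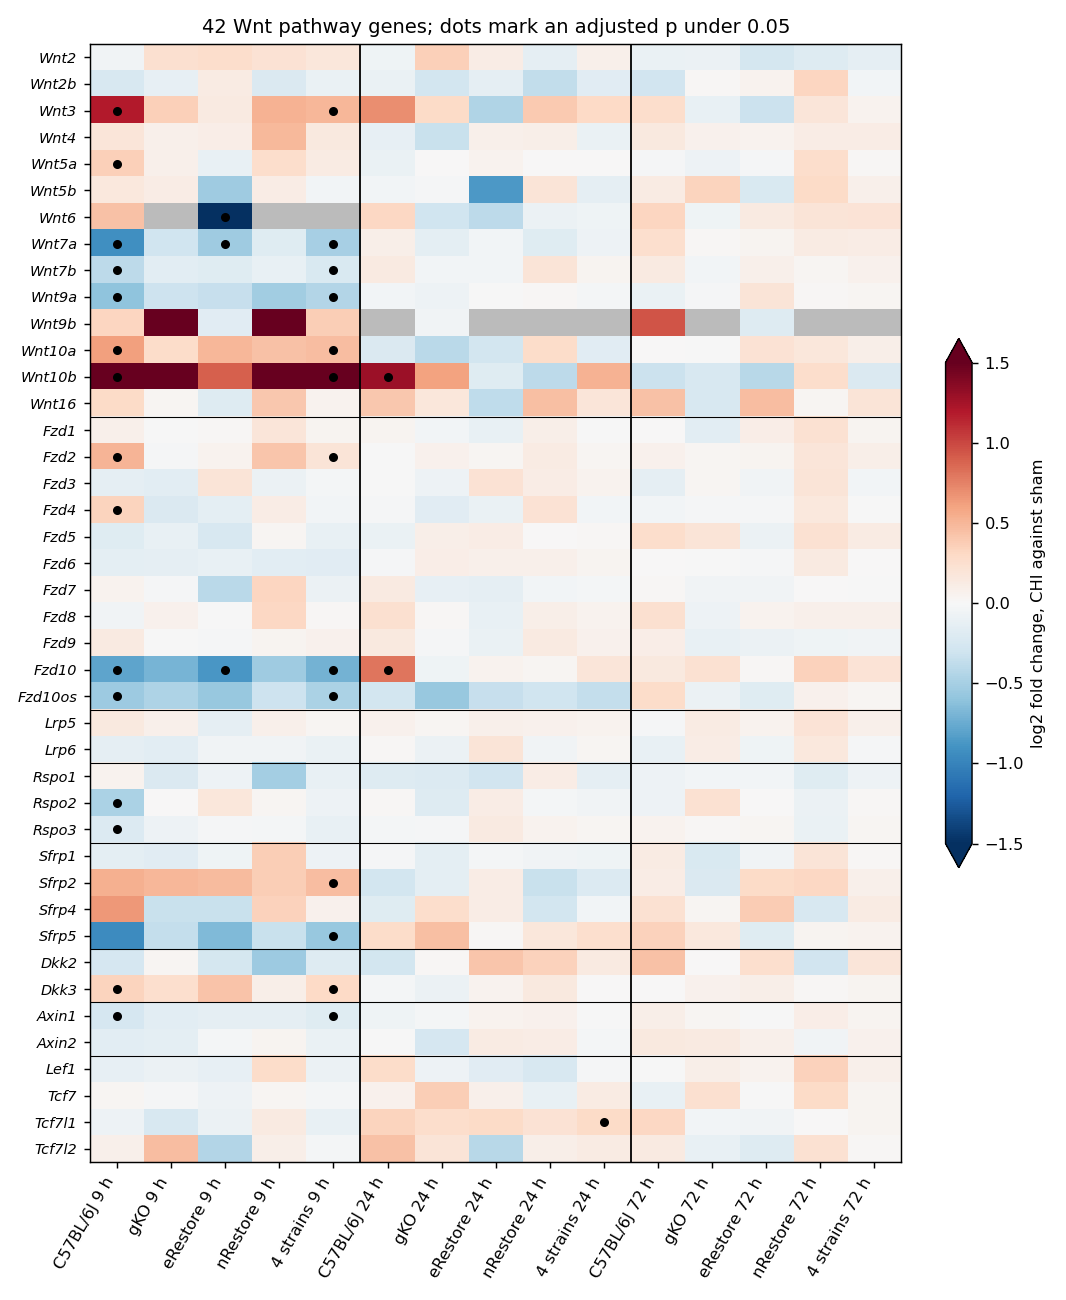
Log2 fold change of CHI against sham for each of the 42 genes (rows, by role) in the 12 comparisons within a strain and the 3 over 4 strains (columns); colour runs from -1.5 to 1.5, a dot marks an adjusted p under 0.05 and grey marks a gene not tested. Dots stand at 9 h in C57BL/6J (15), IL-1R1 eRestore (3) and over 4 strains (13), beside 14.1%, 7.34% and 26.5% of all genes. At 24 h they stand in C57BL/6J (2) and over 4 strains (1), beside 0.404% and 1.96% of all genes, and none stand at 72 h.

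Wnt7a, a ligand that maintains the brain endothelium and supports synapses, had the smallest p of the members in C57BL/6J at 9 h. The gene lies on the reverse strand of chromosome 6, from 91340959 to 91388460 (GRCm39, as are all positions here). Its lowest, median and highest levels were 1.87, 2.31 and 3.30 TPM in the 15 CHI mice and 3.39, 5.14 and 6.21 TPM in the 6 sham mice. All 15 CHI mice lay below every sham mouse. The log2 fold change was -0.92 ± 0.14 (SE; 1.89-fold lower, adjusted p = 9.2e-05). In IL-1R1 eRestore the levels were 3.47, 4.40 and 8.16 TPM after CHI and 3.95, 6.30 and 8.03 TPM after sham surgery. The groups overlapped, and the log2 fold change was -0.53 ± 0.11 (adjusted p = 0.0067).

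Wnt7a did not pass in IL-1R1 gKO or IL-1R1 nRestore. In IL-1R1 gKO the levels were 2.63, 4.16 and 5.80 TPM after CHI and 4.51, 5.91 and 7.90 TPM after sham surgery, a log2 fold change of -0.29 ± 0.14 (adjusted p = 0.47). In IL-1R1 nRestore the 6 CHI mice ran from 2.46 to 5.62 TPM (median 5.13), and the 4 sham mice were at 5.71, 5.18, 5.15 and 4.92 TPM. There the log2 fold change was -0.19 ± 0.21 (adjusted p = 0.78), with medians that all but coincided. Over 4 strains it was -0.50 ± 0.08 (adjusted p = 1.4e-06). The 9 h mice came from 3 labelled experiments, and within both that held C57BL/6J mice every CHI mouse, 10 of 10 and 5 of 5, lay below every sham mouse.

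Wnt9a, on the forward strand of chromosome 11 from 59197567 to 59224378, encodes a ligand best known from skeletal and blood stem cell development. In C57BL/6J its levels were 5.51, 7.40 and 9.44 TPM after CHI and 9.17, 10.5 and 13.0 TPM after sham surgery. Of the 15 CHI mice, 14 lay below every sham mouse, and the log2 fold change was -0.60 ± 0.09 (1.52-fold lower, adjusted p = 9.9e-05). The sham level was similar in the other strains. In IL-1R1 nRestore the 6 CHI mice, from 7.29 to 10.4 TPM (median 8.38), lay below all 4 sham mice, which were at 12.1, 12.8, 11.3 and 14.1 TPM. That difference was -0.52 ± 0.14 on the log2 scale and did not pass over all genes (adjusted p = 0.12).

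The levels of Wnt9a overlapped between CHI and sham in IL-1R1 gKO and IL-1R1 eRestore. In IL-1R1 gKO they were 5.43, 9.04 and 14.1 TPM against 9.65, 12.0 and 14.3 TPM, a log2 fold change of -0.31 ± 0.12 (adjusted p = 0.35). In IL-1R1 eRestore they were 5.38, 9.57 and 13.7 TPM against 9.34, 12.3 and 15.3 TPM, a log2 fold change of -0.34 ± 0.14 (adjusted p = 0.12). Wnt9a thus had a negative sign in each of the 4 strains, and the value over 4 strains, -0.44 ± 0.06, had the smallest adjusted p of any member (9.6e-08).

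The sequences just upstream of 3 of the genes that changed at 9 h are shown because they are the windows free of annotated exons for a ligand that fell (Wnt9a), a ligand that rose in C57BL/6J (Wnt3) and a secreted inhibitor that fell over 4 strains (Sfrp5). They are RefSeq promoter windows of GRCm39, cut to the bases outside annotated exons and written 5′ to 3′ on the strand of the gene. The capitals in the Wnt9a window mark a palindromic E-box, CACGTG, 228 bases before the start that RefSeq gives. The windows lie at chr11:59197506-59197566 (forward), chr11:103664751-103664975 (forward) and chr19:42190692-42190941 (reverse).
Wnt9a: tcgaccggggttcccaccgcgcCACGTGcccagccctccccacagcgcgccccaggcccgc
Wnt3: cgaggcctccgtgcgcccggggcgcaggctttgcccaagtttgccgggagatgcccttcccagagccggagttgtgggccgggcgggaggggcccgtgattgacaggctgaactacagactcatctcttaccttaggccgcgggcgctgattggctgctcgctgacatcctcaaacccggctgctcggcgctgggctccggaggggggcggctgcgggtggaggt
Sfrp5: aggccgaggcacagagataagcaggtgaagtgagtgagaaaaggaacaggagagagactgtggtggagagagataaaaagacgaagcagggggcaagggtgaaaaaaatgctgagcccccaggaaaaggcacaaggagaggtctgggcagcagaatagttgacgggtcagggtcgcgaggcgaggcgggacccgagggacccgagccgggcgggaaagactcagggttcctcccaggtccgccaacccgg

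RefSeq promoters were matched to 26 of the 42 members, in 33 windows of 250 bases before a start, and searched on both strands. The E-box CACGTG was in 3 of the 33 (Wnt9a, Lef1 and Fzd9), beside 6.02% of 32851 promoters of that length. The core that TCF/LEF factors bind, CTTTGA, was in 3 of the 33 (Lef1, Fzd1 and Wnt5b), beside 13.8% of all promoters. The AP-1 element TGANTCA was in the window of Wnt5b, beside 6.75% of all promoters. The cAMP response element TGACGTCA (1.55% of all promoters) and the glucocorticoid response element (0.387%) were in none of the 33. No 2 matches shared a base. Of the genes holding a match, Wnt9a changed at 9 h and the other 4 did not pass in any comparison.

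Wnt7b, the ligand that acts with Wnt7a on the brain endothelium, moved in the same direction by a smaller step. In C57BL/6J its levels were 8.80, 13.5 and 20.3 TPM after CHI and 11.8, 17.7 and 24.4 TPM after sham surgery, and the groups overlapped. In the larger of the experiments each of the 10 CHI mice was lower than each of the 4 sham mice (medians 13.5 and 17.9 TPM), and in the smaller 3 of 5 lay below both sham mice and 1 above them (11.54 and 14.94 TPM). The log2 fold change was -0.39 ± 0.13 (adjusted p = 0.045), and it missed the threshold in 8 of 19 alternative settings, with values from -0.50 to -0.12. Over 4 strains it was -0.23 ± 0.06 (adjusted p = 0.0042) and did not pass without the C57BL/6J mice.

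Wnt3, a ligand of the beta-catenin branch on chromosome 11 from 103664976 to 103708853 (forward strand), was higher after CHI in C57BL/6J. Its levels were 1.68, 2.69 and 3.87 TPM in CHI mice and 0.678, 1.23 and 1.60 TPM in sham mice. All 15 CHI mice lay above every sham mouse, and the log2 fold change was 1.18 ± 0.19 (2.27-fold higher, adjusted p = 0.00012). In the other strains the groups overlapped. The medians of CHI and sham were 1.58 and 1.21 TPM in IL-1R1 gKO (log2 fold change 0.35 ± 0.34), and 1.56 and 1.43 TPM in IL-1R1 eRestore (0.14 ± 0.21). In IL-1R1 nRestore the 6 CHI mice ran from 0.904 to 2.38 TPM (median 1.19). The 4 sham mice were at 1.11, 2.21, 1.10 and 1.31 TPM (median 1.21). The log2 fold change from the fit there, 0.52 ± 0.30, had the opposite sign to the difference of the medians. None of these fold changes passed (adjusted p = 0.78, 0.71 and 0.48). The value over 4 strains, 0.50 ± 0.15 (adjusted p = 0.0069), missed the threshold without the C57BL/6J mice.

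Wnt10b, a ligand known for holding back fat cell formation and promoting bone, was low in sham brain and rose unevenly. In C57BL/6J at 9 h its levels were 0.605, 1.78 and 6.98 TPM after CHI and 0.369, 0.624 and 1.05 TPM after sham surgery. Of 15 CHI mice, 12 lay above every sham mouse, and the log2 fold change was 1.93 ± 0.49 (3.81-fold higher, adjusted p = 0.011). In IL-1R1 gKO 11 of 13 CHI mice lay above every sham mouse, with levels of 0.266, 1.22 and 7.79 TPM against 0.236, 0.415 and 0.695 TPM. The log2 fold change there was 1.56 ± 0.48 (adjusted p = 0.20).

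In IL-1R1 eRestore Wnt10b was at 0.438, 1.24 and 3.57 TPM against 0.288, 0.541 and 0.760 TPM, and 7 of 12 CHI mice lay above every sham mouse. The 6 CHI mice of IL-1R1 nRestore ran from 0.602 to 9.90 TPM with a median of 1.02 TPM, and the 4 sham mice were at 1.18, 0.863, 0.808 and 0.650 TPM. In that strain the large log2 fold change of 2.07 ± 1.09 went with 1 mouse at 9.90 TPM and did not pass (adjusted p = 0.49). Over 4 strains Wnt10b had the largest fold change of the members that passed, 1.61 ± 0.30 on the log2 scale (3.05-fold higher, adjusted p = 2.3e-05). Wnt10b overlaps Wnt1 on the other strand, which had 10 or more counts in only 15 mice.

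Wnt10a and Wnt5a were the other ligands higher in C57BL/6J at 9 h. Wnt10a, a ligand of tooth and hair development, was at 5.97, 8.86 and 16.7 TPM after CHI and 3.42, 6.14 and 8.00 TPM after sham surgery. This was a log2 fold change of 0.62 ± 0.19 (adjusted p = 0.030) in C57BL/6J and of 0.46 ± 0.09 (adjusted p = 0.00011) over 4 strains, and 11 of 15 C57BL/6J CHI mice lay above every sham mouse. Wnt5a, the best known ligand of the branch that works without beta-catenin, was at 2.48, 4.09 and 6.24 TPM against 2.54, 3.01 and 3.88 TPM. The log2 fold change of 0.36 ± 0.12 (adjusted p = 0.046) missed the threshold in 10 of 19 alternative settings, and over 4 strains it was 0.12 ± 0.07 (adjusted p = 0.22).

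Wnt6, a ligand of epithelial development, was lower in IL-1R1 eRestore at 9 h, at 0.0506, 0.167 and 0.779 TPM after CHI and 0.0882, 0.651 and 1.98 TPM after sham surgery. Its log2 fold change was -1.67 ± 0.48 (adjusted p = 0.039) and rested on few reads, since the gene averaged 13.8 counts per mouse. In C57BL/6J it was 0.43 ± 0.43 (adjusted p = 0.56), and in IL-1R1 gKO, IL-1R1 nRestore and the 4 strains together Wnt6 fell under the count minimum of the test. Of the 14 ligands, Wnt2, Wnt2b, Wnt4, Wnt5b, Wnt9b and Wnt16 passed in no comparison. Over 4 strains at 9 h their log2 fold changes ran from -0.10 (Wnt2b) to 0.37 (Wnt9b), the latter with an SE of 0.35.

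**Figure D2:**
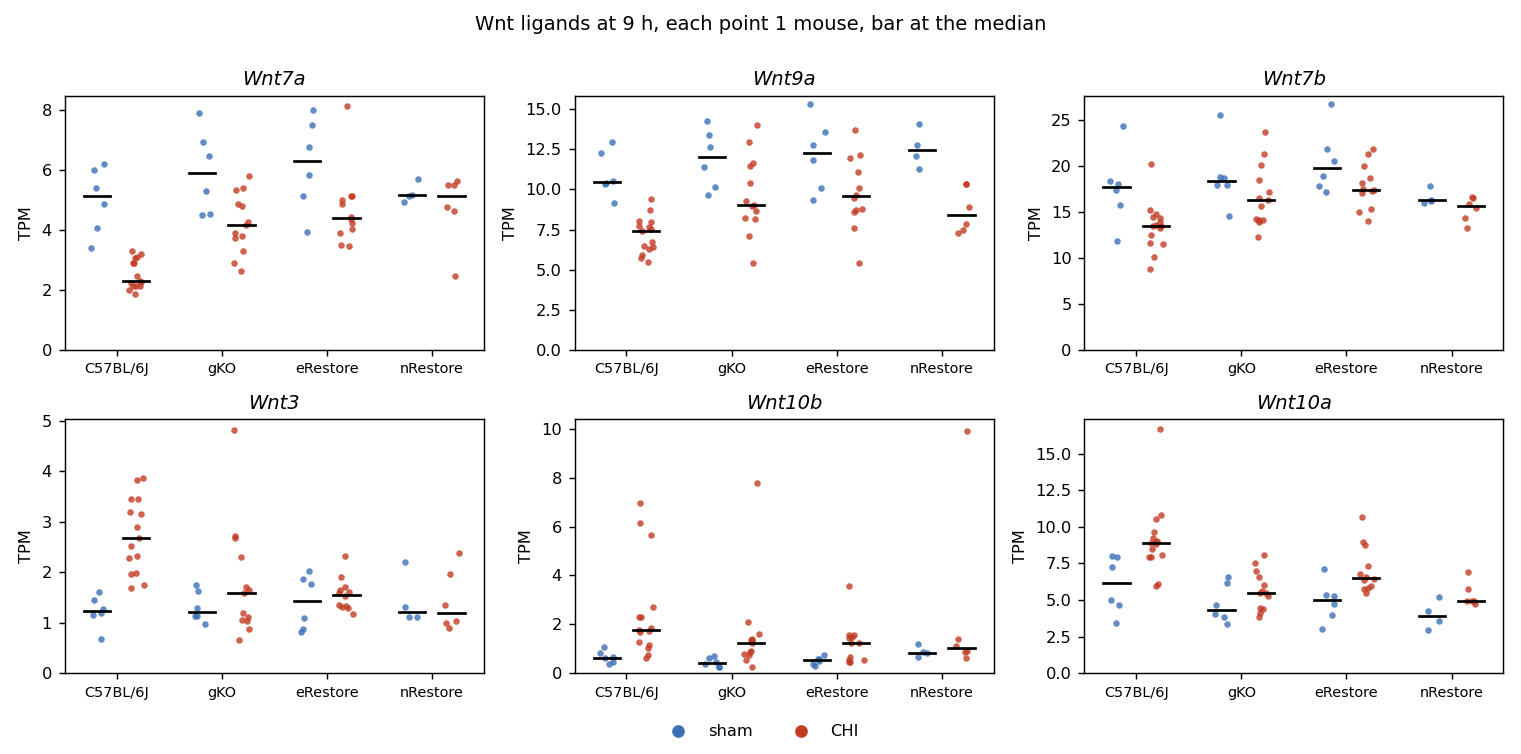
TPM of 6 Wnt ligands in every mouse at 9 h, by strain, with sham in blue and CHI in red (a point is a mouse and a bar the group median). In C57BL/6J the 15 CHI mice sit below the 6 sham mice for Wnt7a and above them for Wnt3. Wnt10b spreads widely after CHI, up to 6.98 TPM in C57BL/6J and 9.90 TPM in IL-1R1 nRestore.

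Among the receptors at 9 h, Fzd10 was lower and Fzd2 higher, and the most abundant receptor gene, Fzd3, did not pass. Fzd10, a receptor of the beta-catenin branch, lies on the forward strand of chromosome 5 from 128677908 to 128681157. In C57BL/6J it was at 0.132, 0.422 and 0.757 TPM after CHI and 0.491, 0.658 and 1.19 TPM after sham surgery. Its log2 fold change was -0.79 ± 0.26 (1.73-fold lower, adjusted p = 0.042), and 9 of 15 CHI mice lay below every sham mouse. In IL-1R1 eRestore it was at 0.364, 0.786 and 1.39 TPM against 0.697, 1.43 and 2.32 TPM, a log2 fold change of -0.87 ± 0.23 (adjusted p = 0.028).

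In IL-1R1 gKO Fzd10 was at 0.283, 0.808 and 1.957 TPM against 0.751, 1.504 and 2.00 TPM (log2 fold change -0.70 ± 0.27, adjusted p = 0.32). In IL-1R1 nRestore the 6 CHI mice ran from 0.363 to 1.73 TPM (median 1.21), and the 4 sham mice were at 1.11, 2.92, 1.62 and 2.14 TPM (-0.54 ± 0.42, adjusted p = 0.65). The direction was shared by the 4 strains, and together they gave -0.71 ± 0.14 (adjusted p = 0.00011). The call over 4 strains missed the threshold in the experiment with the most mice and in that with the IL-1R1 nRestore mice. In the former the CHI and sham medians of Fzd10 were 0.584 and 0.650 TPM in C57BL/6J and 0.786 and 0.835 TPM in IL-1R1 eRestore. In the remaining 9 h experiment they were 0.251 and 0.743 TPM, and 0.739 and 1.53 TPM. Fzd10os, the antisense RNA, moved with Fzd10: -0.54 ± 0.17 (adjusted p = 0.034) in C57BL/6J and -0.47 ± 0.10 (adjusted p = 0.00037) over 4 strains. Over 4 strains it missed the threshold in the same experiments. Its span, from 128656151 to 128679570 on the reverse strand, overlaps Fzd10. Because the sources used here do not say whether counting used strand, reads of the pair in that overlap cannot be told apart.

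Fzd2, a broadly expressed receptor, was at 7.15, 10.4 and 14.1 TPM after CHI and 6.58, 7.36 and 8.37 TPM after sham surgery in C57BL/6J. Of 15 CHI mice, 14 lay above every sham mouse, and the log2 fold change was 0.52 ± 0.12 (adjusted p = 0.0040). The values were -0.02 ± 0.14 in IL-1R1 gKO and 0.05 ± 0.12 in IL-1R1 eRestore (adjusted p = 0.98 and 0.83), and 0.42 ± 0.19 in IL-1R1 nRestore (adjusted p = 0.37). Over 4 strains it was 0.19 ± 0.07 (adjusted p = 0.046), which missed the threshold in 10 of 18 alternative settings. Fzd4, the endothelial receptor for Wnt7 ligands and norrin, was at 5.81, 6.24 and 9.42 TPM against 4.05, 5.26 and 8.02 TPM in C57BL/6J. It differed by 0.34 ± 0.11 on the log2 scale (adjusted p = 0.047) there and by -0.04 ± 0.09 (adjusted p = 0.81) over 4 strains.

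Fzd3, a receptor of axon guidance and planar cell polarity, differed by -0.03 ± 0.06 on the log2 scale over 4 strains at 9 h (adjusted p = 0.76). Fzd1, Fzd5, Fzd6, Fzd7, Fzd8 and Fzd9 likewise passed in no comparison. Their log2 fold changes over 4 strains at 9 h ran from -0.17 ± 0.08 for Fzd6 (adjusted p = 0.094) to 0.06 ± 0.07 for Fzd9 (adjusted p = 0.53). The co-receptors did not pass either. Lrp6, the more abundant, had a log2 fold change of -0.11 ± 0.05 (adjusted p = 0.082) and Lrp5 one of 0.03 ± 0.06 (adjusted p = 0.73).

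Of the 3 R-spondins, Rspo2 and Rspo3 passed in C57BL/6J at 9 h. Rspo2 was at 4.71, 7.90 and 9.61 TPM after CHI and 7.03, 11.0 and 13.5 TPM after sham surgery, with a log2 fold change of -0.47 ± 0.14 (adjusted p = 0.028). In the other strains its log2 fold change was 0.18 ± 0.10 in IL-1R1 eRestore, 0.03 ± 0.12 in IL-1R1 nRestore and 0.00 ± 0.17 in IL-1R1 gKO, and over 4 strains it was -0.07 ± 0.08 (adjusted p = 0.59). Rspo3 was at 7.55, 11.2 and 13.0 TPM against 9.71, 10.8 and 15.2 TPM. Its log2 fold change from the fit, -0.21 ± 0.07 (adjusted p = 0.046), had the opposite sign to the difference of the TPM medians. The call missed the threshold in 13 of 19 alternative settings, one of them the fit without covariates.

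Among the secreted inhibitors, Dkk3 was higher after CHI. Dkk3, a divergent Dickkopf protein of neurons that is not established as an LRP antagonist, lies on the reverse strand of chromosome 7 from 111712904 to 111758760. In C57BL/6J it was at 212, 322 and 362 TPM after CHI and 186.6, 264 and 302 TPM after sham surgery. Of 15 CHI mice, 13 lay above every sham mouse, and the log2 fold change was 0.33 ± 0.08 (1.26-fold higher, adjusted p = 0.0054). In IL-1R1 eRestore the levels were 288, 332 and 408 TPM against 147.5, 249 and 332 TPM (log2 fold change 0.43 ± 0.14, adjusted p = 0.064). The groups overlapped there, with 6 of 12 CHI mice above every sham mouse. The log2 fold change was 0.25 in IL-1R1 gKO and 0.09 in IL-1R1 nRestore, and neither passed. Over 4 strains the log2 fold change was 0.30 ± 0.07 (adjusted p = 0.00035). That call missed the threshold in each 9 h experiment other than the one with the most mice. Dkk2, the other Dickkopf member, averaged 12.8 counts per mouse and passed in no comparison.

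The secreted Frizzled-related genes split over 4 strains at 9 h, with Sfrp5 lower and Sfrp2 higher. Sfrp5 had a log2 fold change of -0.57 ± 0.18 (adjusted p = 0.012) over 4 strains. In C57BL/6J it was at 0.444, 0.771 and 1.62 TPM after CHI and 0.999, 1.29 and 4.42 TPM after sham surgery (-0.95 ± 0.32, adjusted p = 0.052). The call over 4 strains missed the threshold without the C57BL/6J or the IL-1R1 eRestore mice, and when the summed markers of either choroid plexus or meningeal and vascular fibroblasts were a covariate. It also missed it in the experiment with the most mice and in that with the IL-1R1 nRestore mice. Choroid plexus markers were lower in the same mice, 9 of 10 over 4 strains, with a summed level of 6.65, 29.0 and 2578 TPM after CHI and 10.8, 51.8 and 6433 TPM after sham surgery. Their part in the Sfrp5 result was not tested beyond that fit.

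Sfrp2 was at 1.02, 1.73 and 2.56 TPM after CHI and 0.489, 1.01 and 1.62 TPM after sham surgery in C57BL/6J. Its log2 fold change was 0.53 ± 0.23 (adjusted p = 0.13) there and 0.47 ± 0.14 (adjusted p = 0.010) over 4 strains. The call over 4 strains missed the threshold without the C57BL/6J mice. Sfrp4 and Sfrp1, the most abundant of the family, passed in no comparison. Sfrp4 came closest in C57BL/6J at 9 h, with a log2 fold change of 0.66 ± 0.23 (adjusted p = 0.063).

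Axin1, the scaffold on which beta-catenin is marked for breakdown, was slightly lower at 9 h. In C57BL/6J it was at 8.72, 10.9 and 14.1 TPM after CHI and 10.4, 13.5 and 16.9 TPM after sham surgery, with a log2 fold change of -0.25 ± 0.07 (1.19-fold lower, adjusted p = 0.021). In the other strains it ran from -0.16 ± 0.07 (IL-1R1 gKO) to -0.13 ± 0.11 (IL-1R1 nRestore), and over 4 strains it was -0.18 ± 0.04 (adjusted p = 0.00011). The groups overlapped in each strain. Axin2, which beta-catenin itself induces and which is therefore widely read as a sign of pathway activity, did not pass. It was at 8.19, 10.9 and 16.0 TPM after CHI and 7.23, 12.6 and 16.3 TPM after sham surgery in C57BL/6J at 9 h (-0.16 ± 0.08, adjusted p = 0.20). Over 4 strains it was -0.10 ± 0.06 (adjusted p = 0.19) at 9 h, -0.03 ± 0.04 (adjusted p = 0.78) at 24 h and 0.06 ± 0.04 (adjusted p = 0.84) at 72 h.

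The TCF/LEF factors, the DNA-binding partners of beta-catenin, did not pass at 9 h. Lef1 was at 1.47, 2.59 and 5.66 TPM after CHI and 1.49, 3.13 and 3.66 TPM after sham surgery in C57BL/6J (log2 fold change -0.13 ± 0.16, adjusted p = 0.68), and over 4 strains it differed by -0.08 ± 0.10 (adjusted p = 0.59). Tcf7l2, the most abundant of them and a marker of the thalamus, spread widely at 9 h, up to 25.7 TPM in 1 IL-1R1 gKO CHI mouse against a group median of 3.35 TPM. Over 4 strains its log2 fold change was -0.03 ± 0.20 (adjusted p = 0.93). Of 8 thalamus markers, 0 passed in the same comparison with edgeR.

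**Figure D3:**
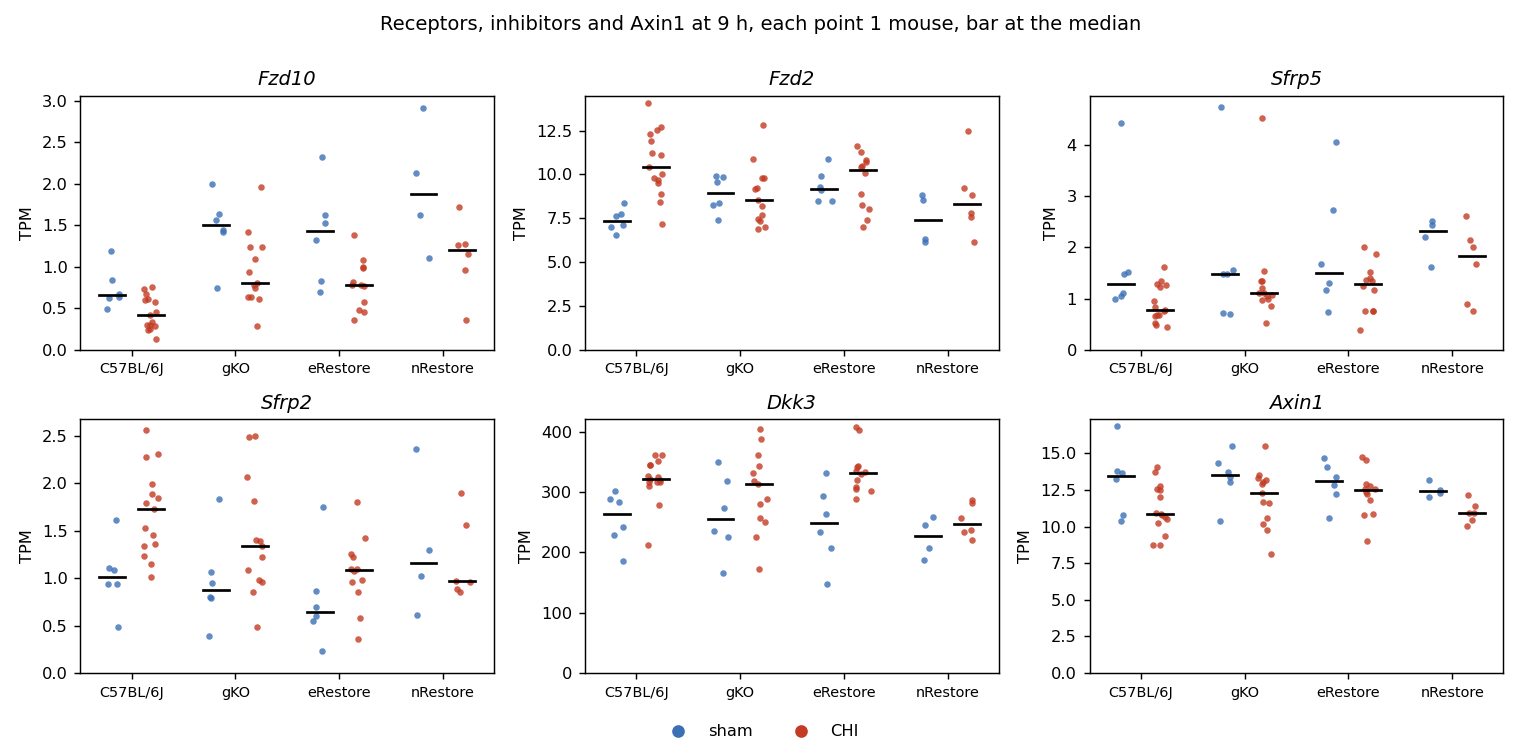
TPM of 2 receptors, 3 secreted inhibitors and Axin1 in every mouse at 9 h, by strain, with sham in blue and CHI in red (a point is a mouse and a bar the group median). Fzd10 is lower and Dkk3 higher after CHI in the medians of each strain, and Fzd2 separates the groups mainly in C57BL/6J, where 14 of 15 CHI mice lie above the sham mice.

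At 24 h 2 members were changed in C57BL/6J, both higher, Wnt10b and Fzd10. They were 2 of 41 members tested (4.88%), beside 0.404% of all genes in either direction, 0.229% higher and 0.175% lower. Wnt10b was still higher, at 0.566, 1.42 and 2.60 TPM after CHI and 0.343, 0.594 and 0.916 TPM after sham surgery. Of 14 CHI mice, 13 lay above every sham mouse, and the log2 fold change was 1.29 ± 0.27 (adjusted p = 0.023). Fzd10, lower at 9 h, was now higher, at 0.590, 1.18 and 1.54 TPM against 0.546, 0.650 and 0.871 TPM. Here too 13 of 14 CHI mice lay above every sham mouse, and the log2 fold change was 0.80 ± 0.18 (adjusted p = 0.042).

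Both 24 h calls depended on which sham mice were in the fit. Wnt10b missed the threshold without sham mouse 1, 3, 4 or 5 (adjusted p up to 0.41 over all settings), and Fzd10 without any of those or sham mouse 6 (adjusted p up to 0.66), and the count of members was then 0 or 1. In IL-1R1 gKO the Wnt10b medians were 0.8123 and 0.49996 TPM, with 10 of 12 CHI mice above every sham mouse (log2 fold change 0.60 ± 0.27, adjusted p = 0.52). In IL-1R1 eRestore Wnt10b ran from 0.243 to 1.35 TPM in 9 CHI mice, and the 5 sham mice were at 0.595, 0.784, 0.748, 1.60 and 0.826 TPM (-0.18 ± 0.39, adjusted p = 0.93). Fzd10 differed by -0.07 ± 0.26 in IL-1R1 gKO, 0.06 ± 0.22 in IL-1R1 eRestore and 0.03 ± 0.22 in IL-1R1 nRestore.

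Wnt3 at 24 h was near the threshold in C57BL/6J, at 1.01, 1.46 and 2.08 TPM after CHI and 0.514, 0.953 and 1.02 TPM after sham surgery (log2 fold change 0.70 ± 0.17, adjusted p = 0.080). In IL-1R1 eRestore it had the opposite sign. There the 9 CHI mice ran from 0.668 to 1.12 TPM, and 6 of the 9 lay below all 5 sham mice, which were at 1.66, 1.47, 1.09, 1.4005 and 1.04 TPM (-0.46 ± 0.23, adjusted p = 0.58). Of these mice 4 CHI mice came from an experiment with no IL-1R1 eRestore sham mouse, and 1 sham mouse from an experiment with no IL-1R1 eRestore CHI mouse. At 24 h 5 IL-1R1 gKO and 4 IL-1R1 nRestore CHI mice likewise had no sham mouse of their strain in their experiment, so surgery and experiment are partly confounded there. Over 4 strains at 24 h 1 of 41 members (2.44%) changed, beside 1.96% of all genes, 0.826% higher and 1.13% lower. It was Tcf7l1, a TCF factor that mostly represses its targets, at 1.72, 2.70 and 5.01 TPM after CHI and 1.63, 2.19 and 4.14 TPM after sham surgery (0.29 ± 0.07, adjusted p = 0.011). Its log2 fold change was between 0.22 and 0.33 in each strain, and it missed the threshold without the C57BL/6J or the IL-1R1 gKO mice.

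In the other 24 h comparisons and at 72 h no member passed with edgeR. At 24 h the counts were 0 of 42 in IL-1R1 gKO (0.0059% of all genes, 7 members at an unadjusted p under 0.05), 0 of 41 in IL-1R1 eRestore (0% of all genes, 4 members) and 0 of 41 in IL-1R1 nRestore (0%, 1 member). At 72 h they were 0 of 42 in C57BL/6J (0%, 2 members), 0 of 41 in IL-1R1 gKO (0%, 1 member), 0 of 42 in IL-1R1 eRestore (0.00605%, 0 members), 0 of 41 in IL-1R1 nRestore (0.0121%, 1 member) and 0 of 41 over 4 strains (0.717%, 1 member). DESeq2 gave 0 members in each of these 8 comparisons too. Here again the shares of all genes are for the adjusted p with edgeR and are no background for the unadjusted counts. At 72 h over 4 strains the genes that led at 9 h had log2 fold changes of 0.11 ± 0.05 (Wnt7a), 0.03 ± 0.06 (Wnt9a), -0.22 ± 0.16 (Wnt10b), 0.05 ± 0.10 (Wnt3) and 0.20 ± 0.11 (Fzd10). Of these Wnt7a had the smallest adjusted p, 0.64.

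The effect of CHI at 9 h differed from that at later times for part of the set. With all mice in 1 fit, 11 of 42 members differed between 9 and 24 h over 4 strains, beside 9.63% of all genes, and 6 in C57BL/6J, beside 4.3%. Between 9 and 72 h 11 differed over 4 strains, beside 11.8% of all genes, and 7 in C57BL/6J, beside 5.83%. Wnt7a in C57BL/6J had the smallest p in both, with a 9 h log2 fold change lower than that at 24 h by -0.92 ± 0.16 (adjusted p = 2.1e-05) and than that at 72 h by -1.18 ± 0.16 (adjusted p = 1.1e-08). For Fzd10 in C57BL/6J, the sign change between 9 and 24 h amounted to a difference of -1.48 ± 0.34 (adjusted p = 0.0020).

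The sham levels of several members also differed between the times. Over 4 strains the sham median of Wnt9a was 12.0 TPM at 9 h, 7.21 TPM at 24 h and 7.17 TPM at 72 h, and that of Dkk3 was 245, 172.3 and 175.97 TPM. For Wnt7a it was lower at 9 h, at 5.36, 7.54 and 6.62 TPM. The CHI medians of Wnt9a were 8.63, 7.03 and 7.75 TPM, so the 9 h CHI level lay above the later levels of both groups although it was below its own sham level. Because the 9 h mice came from experiments of their own and were killed at another time of day, time after surgery, time of day and experiment cannot be told apart in such differences. The striatum markers were low at 9 h in both groups, with a median sum of 397 TPM after CHI and 465 TPM after sham surgery, against 1256 and 1278 TPM at 24 h and 1391 and 1287 TPM at 72 h. Their part in the differences between times was not tested.

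**Figure D4:**
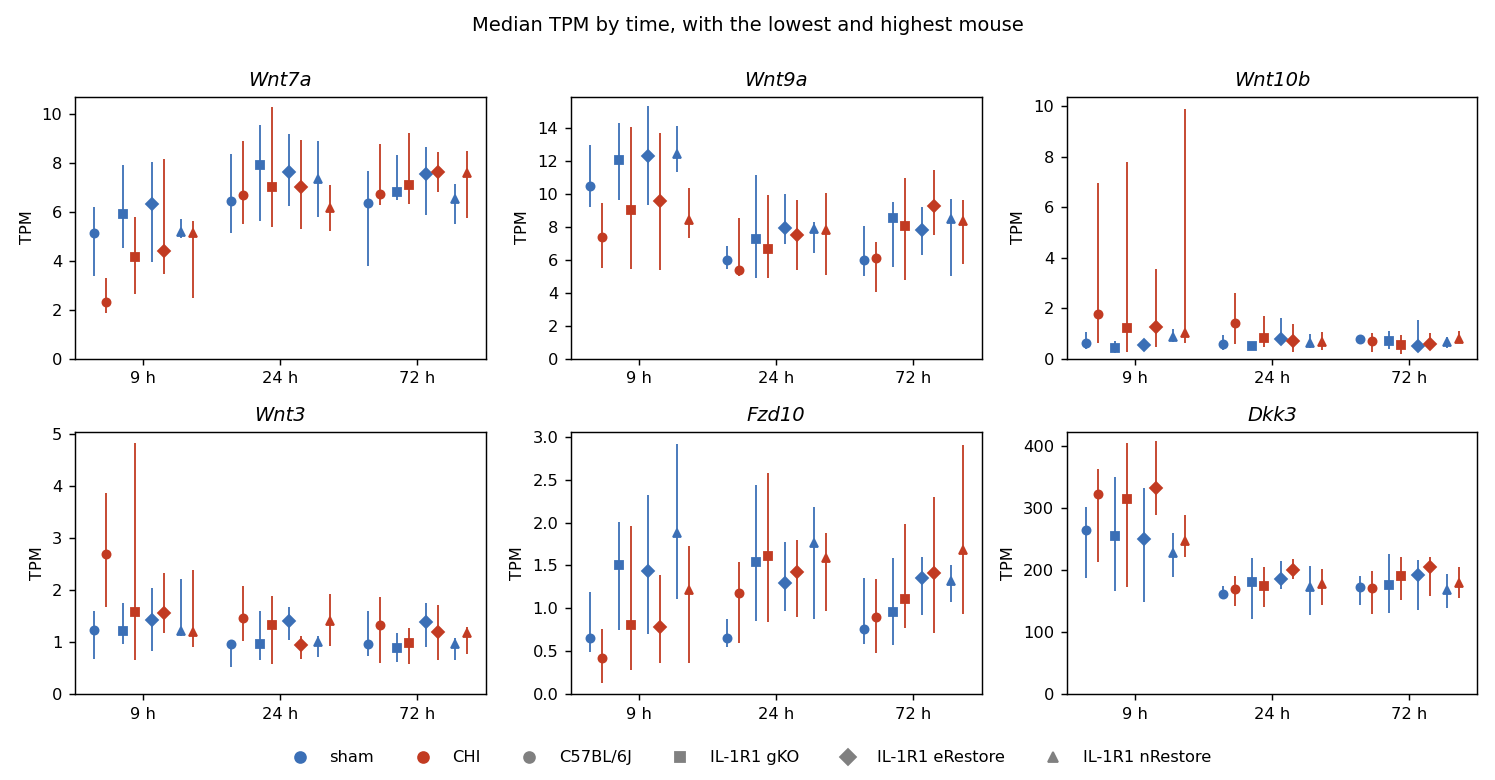
Median TPM of 6 members at 9, 24 and 72 h, with bars from the lowest to the highest mouse, for CHI and sham in each of 4 strains (marker shapes). Points in blue are sham and points in red CHI. The sham medians of Wnt9a and Dkk3 stand higher at 9 h than later, and Wnt7a and Fzd10 are lower after CHI at 9 h, with overlap of the groups at 72 h.

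No difference between strains in the effect of CHI passed for any member. The 4 tests at 9 h were of any strain difference (0.00534% of all genes passed) and of IL-1R1 nRestore (0.00534%), IL-1R1 eRestore (0.0107%) and IL-1R1 gKO (0%) against C57BL/6J. In the same order, at 24 h they gave 0.00541%, 0%, 0.0108% and 0.00541% of all genes, and at 72 h 0.00543%, 0.00543%, 0% and 0%. Males and females were compared in the same way, and 0 members passed at each time too, beside 0% of all genes at 9 and 24 h and 0.00565% at 72 h. These counts are from edgeR. At an unadjusted p under 0.05 they were at most 10 of 42 members, for IL-1R1 eRestore against C57BL/6J at 9 h, beside 1608 of all 18741 genes tested. DESeq2 was not run for these differences.

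The smallest adjusted p of a strain difference was that of Wnt3. The 24 h effect on Wnt3 differed by -1.28 ± 0.27 on the log2 scale between IL-1R1 eRestore and C57BL/6J (adjusted p = 0.081), and the 9 h effect by -1.01 ± 0.36 (adjusted p = 0.34). The next were Wnt6 at 9 h in IL-1R1 eRestore (-2.04 ± 0.65, adjusted p = 0.25) and Fzd10 at 24 h in IL-1R1 gKO (-0.79 ± 0.27, adjusted p = 0.32), each against C57BL/6J. The 9 h effect on Wnt7a differed from that in C57BL/6J by 0.63 ± 0.20 in IL-1R1 gKO (adjusted p = 0.44), 0.42 ± 0.20 in IL-1R1 eRestore (adjusted p = 0.55) and 0.83 ± 0.23 in IL-1R1 nRestore (adjusted p = 0.50). All IL-1R1 nRestore mice at 9 h, and 6 of 13 CHI and 2 of 6 sham mice of IL-1R1 gKO, came from an experiment that held no C57BL/6J mice, so strain and experiment are partly confounded in IL-1R1 gKO and cannot be told apart in IL-1R1 nRestore. In that experiment the IL-1R1 gKO medians of Wnt7a were 4.53 TPM after CHI and 4.92 TPM after sham surgery. In the experiments shared with C57BL/6J they were 3.52 and 5.74 TPM, and 4.88 and 7.20 TPM, with every IL-1R1 gKO CHI mouse, 4 of 4 and 3 of 3, below both sham mice. These differences between strains were thus not shown, and with 4 to 6 sham mice per strain their errors do not show that the strains were alike either.

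Genes of the pathway outside the set, in fixed lists, moved in C57BL/6J at 9 h as follows, with 14.1% of all genes as the background. Of 21 membrane and secretion partners, 1 rose and 3 fell. Kremen1, a receptor of Dickkopf proteins, was at a log2 fold change of 0.61 ± 0.10, and Wls, which carries Wnt proteins to the cell surface, was at -0.42 ± 0.10 (adjusted p = 0.00016 and 0.0044). Lgr4, an R-spondin receptor, was at -0.28 ± 0.06 (adjusted p = 0.0018). Of 8 further secreted inhibitors, whose names the rule does not take, 2 rose and 1 fell: Apcdd1 (0.46 ± 0.10) and Igfbp4 (0.47 ± 0.11) against Frzb (-0.44 ± 0.11). Frzb is a secreted Frizzled-related gene by function and is outside the set by its name only.

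Of 28 genes of the destruction complex and Dishevelled 1 rose and 4 fell, led by Dact1 (-0.42 ± 0.11), a Dishevelled partner. Of 21 nuclear partners 1 rose (Tle3, a co-repressor, 0.51 ± 0.14) and 3 fell, led by the kinase gene Nlk (-0.32 ± 0.09). Of 16 planar cell polarity genes 1 rose (Daam2, 0.39 ± 0.08) and 3 fell, led by Daam1 (-0.27 ± 0.06). Over 4 strains at 9 h these 5 lists gave 1 higher and 6 lower of 21, 2 and 2 of 8, 1 and 6 of 28, 1 and 7 of 21, and 2 and 3 of 16, in the same order and beside 26.5% of all genes.

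Of 23 target genes of beta-catenin tested in C57BL/6J at 9 h, 4 rose and 3 fell, so they did not share a direction. The glucose transporter gene Slc2a1 (0.53 ± 0.07, adjusted p = 1.0e-05) and the lipid transporter gene Mfsd2a (0.82 ± 0.12, adjusted p = 4.4e-05), both of the brain endothelium, were higher, and Tnfrsf19 was lower (-0.37 ± 0.07, adjusted p = 0.00090). Over 4 strains 7 of 22 rose, with Mfsd2a at 0.55 ± 0.08 and Cd44, which is also in the reactive astrocyte list, at 0.71 ± 0.14, and 4 fell, with Jun at -0.24 ± 0.04. The median log2 fold change of the list was 0.05 in C57BL/6J and 0.04 over 4 strains.

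Markers of other cell types moved with CHI at 9 h in the same libraries. Reactive astrocyte markers were higher, 6 of 8 in C57BL/6J and 7 of 8 over 4 strains, with a summed level of 141.7, 247 and 427 TPM after CHI and 94.5, 114 and 128 TPM after sham surgery in C57BL/6J. Endothelial markers, of the cells on which Wnt7a and Wnt7b act, went both ways, with 3 of 9 higher and 2 lower in C57BL/6J. Immediate early genes, which are not markers of a cell type, were also lower, 10 of 10 in C57BL/6J, with a median log2 fold change of -1.31. The paper that reported the C57BL/6J mice gives the opposite direction at 9 h, with Arc and Fos among the genes it describes as higher after CHI. The reason for that difference was not tested. Meningeal and vascular fibroblast markers were lower in IL-1R1 eRestore, 6 of 11, with a summed level of 42.02, 58.8 and 82.1 TPM after CHI and 41.6, 96.2 and 235 TPM after sham surgery. With that sum as a covariate, none of Wnt7a, Fzd10 and Wnt6 passed in IL-1R1 eRestore. Choroid plexus markers did not pass in C57BL/6J at 9 h (0 of 10, median log2 fold change -1.87) or at 24 h (0 of 7, median 1.12). With their sum as a covariate, Wnt7b, Wnt5a, Axin1, Rspo3 and Fzd10os no longer passed at 9 h in C57BL/6J, nor did Fzd2 over 4 strains. With the striatum sum, Wnt5a, Fzd4 and Rspo3 no longer passed in C57BL/6J, nor did Fzd2 over 4 strains. With the choroid plexus sum, neither Wnt10b nor Fzd10 passed at 24 h in C57BL/6J. The part of these cells in the results was not tested otherwise.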

How the data were processed

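The data were poly(A) RNA-seq of a brain hemisphere from 200 mice. The authors aligned reads with STAR and quantified them with Salmon against GRCm39, and deposited 2 tables, estimated counts per gene and TPM values per gene. The annotation release and strandedness are not given in the sources used here. Gene positions are from GENCODE M39. Groups were taken from the sample labels.

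Estimated counts were rounded and tested with edgeR 4.0.16 in R 4.3.3 (TMM scaling, robust quasi-likelihood F test), on genes that reached 10 counts in a number of mice no lower than the size of the smaller surgery group. Sex and age were covariates (sex was dropped for IL-1R1 nRestore at 72 h), and strain was added over 4 strains. The SE is the log2 fold change divided by the square root of F. P-values were Benjamini-Hochberg adjusted over all genes tested. TPM values were used for levels only. Strain, sex and time differences were interaction terms. DESeq2 1.42.0, other filters and covariates, single experiments and leaving out each sham mouse were alternatives. A fit of CHI against sham within a single strain and time was first tested on simulated counts that held known fold changes. This was done with edgeR and with DESeq2, without the count filter. The fits of the other strains and times, those over 4 strains, the interaction terms and the other alternatives were not tested in this way.

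Every member is accounted for by role. Those described with values are the members that passed in any comparison, the most abundant of each role, and Axin2 and Lef1, and at most 3 genes with the smallest p are named per pathway list. The members and lists were chosen with earlier results of these data known. Totals per library ran from 14857985 to 57355676 counts, which sets the counting error of the low members. The labels do not say whether mice shared litters or cages, so p-values measure the spread between these mice.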

Additional observations from a re-analysis of the deposited data

Results flagged for a closer look

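The effect of CHI on part of the Wnt genes differed between 9 h and the later times. Each value in brackets is the 9 h log2 fold change of CHI against sham less the one at 24 or 72 h, from edgeR with all mice in 1 fit, in order of p. Between 9 and 24 h over 4 strains the 11 genes past an adjusted p of 0.05 were Wnt10a (0.68), Fzd10 (-0.93), Wnt9a (-0.38), Sfrp5 (-0.84), Dkk3 (0.30), Wnt10b (1.15), Wnt7a (-0.33), Sfrp2 (0.69), Tcf7l1 (-0.36), Wnt7b (-0.23) and Axin1 (-0.15). In C57BL/6J alone they were Wnt7a (-0.92), Fzd10 (-1.48), Wnt7b (-0.50), Wnt10a (0.83), Fzd2 (0.53) and Wnt9a (-0.54). Between 9 and 72 h over 4 strains the 11 genes were Wnt7a (-0.55), Wnt10b (1.78), Wnt9a (-0.47), Fzd10 (-0.92), Axin1 (-0.22), Wnt7b (-0.27), Dkk3 (0.26), Fzd10os (-0.49), Wnt2 (0.34), Sfrp5 (-0.62) and Wnt10a (0.38). In C57BL/6J alone the 7 genes were Wnt7a (-1.18), Wnt7b (-0.56), Wnt10b (2.18), Sfrp5 (-1.30), Axin1 (-0.31), Wnt3 (0.93) and Wnt9a (-0.51).

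The highest adjusted p among these was 0.048 and 0.037 against 24 h, and 0.033 and 0.045 against 72 h, over 4 strains and in C57BL/6J in turn. Of these genes Wnt10b and Fzd10 in C57BL/6J and Tcf7l1 over 4 strains also passed at 24 h on their own; Wnt10b had the same sign at 9 h, and Fzd10 and Tcf7l1 the other. The counts of 11, 6, 11 and 7 genes were equal without age as a covariate. No labelled experiment held mice of 9 h and of a later time, so time after surgery, time of day and experiment cannot be told apart in these differences. The TPM of each member that changed within a strain was also looked at for a mouse far from the others. This used the sham mice of the strain and time in which it changed. Over these 20 sets of 6 values 0 were marked, where chance marks about 1 in 20. Sfrp5, Sfrp2 and Tcf7l1 changed only over 4 strains and were not looked at in this way. Sfrp5 was at 4.42 TPM in 1 C57BL/6J sham mouse at 9 h and from 0.999 to 1.51 TPM in the others. In IL-1R1 gKO 1 sham mouse was at 4.74 TPM and the others from 0.693 to 1.55 TPM, and 1 CHI mouse was at 4.54 TPM.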

How the results depend on the processing

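No value of a changed gene reversed its sign under any alternative run. Of the values recomputed for the genes changed in C57BL/6J at 9 h, 82 of 284 missed the threshold, with 15 of 35 in C57BL/6J at 24 h, 19 of 51 in IL-1R1 eRestore at 9 h, 39 of 230 over 4 strains at 9 h and 4 of 17 over 4 strains at 24 h. The cause was not tested for the changes below. Some of the alternatives hold fewer mice or test more genes.

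In C57BL/6J at 9 h the 15 members became 8 without the count filter, 9 without covariates, 6 in the experiment with the most mice and 1 in the smaller experiment, and 9 to 12 with a sham mouse left out (9 without sham mouse 1). Wnt7a, Wnt9a, Wnt3, Fzd2, Dkk3 and Wnt10b stayed past the threshold with any sham mouse left out. Axin1 missed it without sham mouse 3 or 6, Rspo2 and Wnt10a without 1, 2 or 5, Fzd10os without 1, 2, 4 or 6, Fzd10 without 1, 4, 5 or 6, Wnt7b and Fzd4 without 1, 2, 5 or 6, Rspo3 without 1, 2, 3 or 4, and Wnt5a without 1, 3, 4, 5 or 6.

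In C57BL/6J at 24 h the 2 members became 4 without the filter, 1 with at least 10 counts required in every mouse, and 0 in the experiment with the most mice, with the choroid plexus sum as a covariate or in 1 fit of all mice, and 0 to 2 with a sham mouse left out. In IL-1R1 eRestore at 9 h the 3 members became 1 without covariates, 1 in the experiment with the most mice, 0 with the fibroblast sum and 1 with the striatum sum as a covariate, 6 in 1 fit of all mice, and 1 to 5 with a sham mouse left out. There Fzd10 missed the threshold without sham mouse 1, 2, 4 or 5, and Wnt6 without 1, 2 or 5. In IL-1R1 eRestore at 24 h the count of 0 became 1 without the filter. In IL-1R1 gKO at 9 h the count of 0 became 1 with DESeq2, with its own size factors or gene-length offsets, and in 1 fit of all mice. In IL-1R1 nRestore at 9 h it became 1 with DESeq2, 5 without the filter and 1 without covariates.

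Over 4 strains at 9 h the 13 members became 8 in the experiment with the most mice, 8 without C57BL/6J, and 6 and 0 in the other experiments. Over 4 strains at 24 h the 1 member became 2 with DESeq2, 0 in the experiment with the most mice, 0 without C57BL/6J or without IL-1R1 gKO, 3 without IL-1R1 eRestore, 2 without IL-1R1 nRestore, 3 without the libraries that did not match their labelled sex, and 0 in 1 fit of all mice. The fits with marker sums, those in the smaller experiments and that without the mismatched libraries were chosen after seeing the data. No paired analysis was possible because the labels give no replicate number that ties a CHI mouse to a sham mouse. With 4 to 6 sham mice per strain, and with Wnt6, Wnt9b, Wnt16 and Dkk2 averaging under 20 counts per mouse, smaller differences were not detectable at this depth.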
